A study of Mus musculus with 6 samples.

Results

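Hdhd3, Prr15l, Lrrc14, Ankrd49, Lrrn4 and Gas1 are 6 genes about which little is known in hypoxia, described here from an RNA sequencing study of mouse embryonic fibroblasts. They were chosen for a low level in hypoxia relative to normoxia in the authors' deposited table, and are 6 of its 51482 measurements and of the 14575 that the authors tested. All 6 symbols matched 1 row each. Wild-type (WT) cells were compared after 16 h at 21% oxygen (normoxia, 3 samples) and after 16 h at 0.5% oxygen (hypoxia, 3 samples), with 6 samples in all. Both groups carry SV40, whose large T antigen disables the p53 and retinoblastoma proteins and so immortalises the cells, and no other allele or agent is named. The authors combined the replicates into 1 FPKM value per gene and group (fragments scaled to transcript length and library size), so values of single samples, an SD and the depth are unknown here. The words rose and fell are kept for genes with a q below 0.05 in the authors' deposited table, and folds are ratios of the group FPKM values. Nothing in the labels says that the samples came from separate lines, so that q may measure technical spread.

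The 6 genes belong to no common pathway. GAS1 is a protein anchored to the outer face of the cell membrane by a lipid, first found in fibroblasts that had stopped dividing, and it acts with CDON and BOC as a co-receptor for Hedgehog ligands. LRRN4 is a membrane protein with leucine-rich repeats, known from neurons and as a marker of mesothelium, the lining of the body cavities. LRRC14 also carries leucine-rich repeats and is known to restrain the IKK kinase of NF-kB signalling, and it has been described as a substrate receptor of CUL2 ubiquitin ligases, the class to which the hypoxia regulator VHL belongs. ANKRD49 is a small nuclear ankyrin repeat protein, HDHD3 a member of the haloacid dehalogenase (HAD) family, most of whose enzymes are phosphatases, and PRR15L a small proline-rich protein whose function is little known.

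For 4 of the 6 genes, Hdhd3, Ankrd49, Lrrn4 and Gas1, a promoter window of 250 bases before to 50 bases after the start was at hand from RefSeq (build GRCm38.p6). The letters that form the core of the hypoxia response element, ACGTG or GCGTG on either strand, are shown for the genes that hold them, and Gas1 is shown beside them as a promoter without them. Capitals mark these letters, and in Gas1 the box CCAAT and the reverse complement of GGGCGG, the GC box bound by SP1-type factors. All 3 are read from the minus strand, 5′ to 3′. The Gas1 stretch overlaps an exon of the noncoding gene Gm48488 on the other strand and no exon of a protein-coding gene. The Hdhd3 stretch overlaps no GENCODE exon. It ends just before the first exon of its coding transcript, and lies in an intron of a second, noncoding transcript of the gene that starts farther upstream. The Ankrd49 stretch is the site itself with flanks. It lies inside the GENCODE span of Ankrd49, which starts farther upstream than the RefSeq start. In the window before the RefSeq start, no stretch of that length lies outside exons of protein-coding genes.
Hdhd3, chr4:62502277-62502450: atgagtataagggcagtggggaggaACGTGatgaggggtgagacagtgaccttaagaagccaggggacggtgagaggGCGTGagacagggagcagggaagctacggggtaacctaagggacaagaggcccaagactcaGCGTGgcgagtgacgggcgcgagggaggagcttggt
Ankrd49, chr9:14784632-14784661: gatccattgatgACGTGacatcacagaatg
Gas1, chr13:60177536-60177785: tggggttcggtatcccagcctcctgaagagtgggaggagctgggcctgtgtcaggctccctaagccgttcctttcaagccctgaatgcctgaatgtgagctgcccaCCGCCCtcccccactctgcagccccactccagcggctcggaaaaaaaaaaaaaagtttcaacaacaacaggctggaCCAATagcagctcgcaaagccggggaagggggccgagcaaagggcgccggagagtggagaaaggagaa

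Hdhd3 held 1 match to ACGTG and 2 to GCGTG, from position -225 to -108 relative to the RefSeq start, and Ankrd49 held 1 match to ACGTG at -76. Among all 32851 promoter windows of the same length 19.6% held ACGTG and 32.4% held GCGTG. The GC box GGGCGG was in the Hdhd3, Ankrd49 and Gas1 windows (35.7% of all windows), and CCAAT in those of Ankrd49, with 2 matches, and Gas1 (37.4% of all). Ankrd49 alone held CCGGAA, the core bound by ETS factors (14.9% of all). None of the 4 windows held CACGTG, the E-box of MYC, which contains ACGTG (7.15% of all). None held the TATA box TATAAA (13.6% of all), the cyclic AMP response element TGACGTCA (1.79% of all) or the NRF1 motif (0.971% of all). The Lrrn4 window held none of the 9 motifs searched, on either strand. A match of letters is a description and not a bound site.

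The levels of the 6 genes spanned 13.6-fold in normoxia and 24.6-fold in hypoxia. FPKM is a value per length, so levels can be set side by side. Gas1 was highest, at 98.3 FPKM in normoxia, above 93.3% of all tested measurements, and at 11.0 FPKM after hypoxia. Lrrn4 stood at 51.1 and 5.76 FPKM and Prr15l at 25.7 and 2.24 FPKM. All 3 thus passed from the upper part of the tested range to a level that 51.4%, 39.2% and 26.2% of tested measurements lay below. Lrrc14 went from 15.2 to 1.54 FPKM. Hdhd3, at 7.77 and 0.446 FPKM, and Ankrd49, at 7.22 and 0.784 FPKM, were close to each other in normoxia and ended below 1 FPKM. The order of the genes was the same in both conditions except that Hdhd3 and Ankrd49 changed places. Without values of single samples, whether neighbours in this order differ beyond their spread was not tested.

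**Figure D1:**
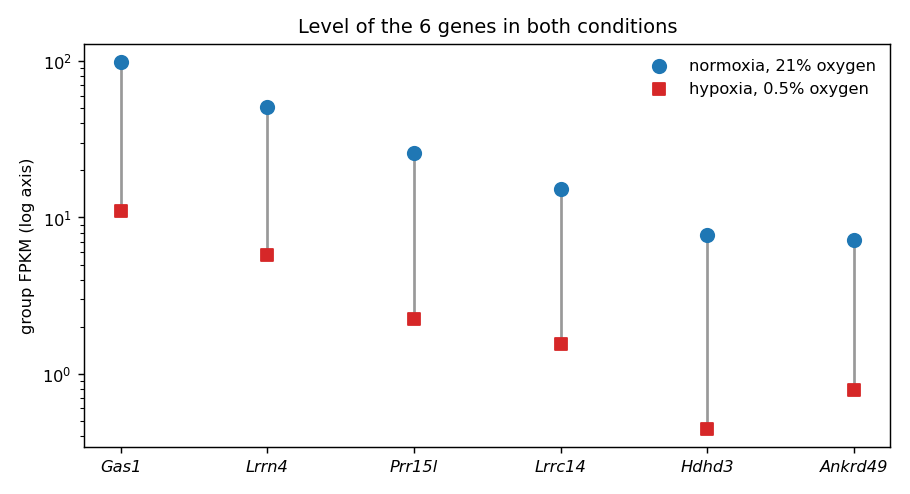
Group FPKM (log axis) of each of the 6 genes in normoxia (circles) and hypoxia (squares), joined by a line. There is 1 value per gene and condition, so no error bars are drawn. Gas1 goes from 98.3 to 11.0 FPKM, and Hdhd3 has the longest line, from 7.77 to 0.446 FPKM.

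The authors' deposited table calls all 6 genes lower, and since they were chosen on this contrast the count is a description. That table calls 57.9% of tested measurements, 29.0% lower and 28.9% higher. At least 2-fold changes make up 9.87% (lower) and 9.03% (higher), and falls of at least 4-fold 2.11%. The level left in hypoxia was between 5.74% (Hdhd3) and 11.3% (Lrrn4) of the level in normoxia. Expressed as folds, Hdhd3 was 17.4-fold lower, Prr15l 11.5-fold, Lrrc14 9.86-fold, Ankrd49 9.21-fold, Gas1 8.96-fold and Lrrn4 8.87-fold. The authors' deposited table gives a q of 0.000518 for Prr15l and of 0.000139 for the other 5, which is the smallest q it holds and is shared by 5148 measurements. In absolute terms the fall was largest for Gas1 (87.4 FPKM) and smallest for Ankrd49 (6.44 FPKM).

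These genes stand among the 10 largest called falls of protein-coding genes whose higher group reached 5 FPKM. There were 2918 such falls, with a median of 1.58-fold. Hdhd3 ranked 1, Prr15l 3, Lrrc14 5, Ankrd49 7, Gas1 8 and Lrrn4 10. The low hypoxia values weigh on this order. With 1 FPKM added to both groups the log2 ratio of Hdhd3 goes from -4.12 to -2.60, behind Gas1 and Prr15l (both -3.05), Lrrn4 (-2.95) and Lrrc14 (-2.67), and that of Ankrd49 goes from -3.20 to -2.20. The other ranks were held by Rrp12 (12.5-fold lower), Gmppb (10.02-fold), Mest (9.34-fold) and Polr3e (8.95-fold). Just outside were Smpd5 (8.361-fold, from 5.04 to 0.603 FPKM), Sowahd, an ankyrin repeat gene (8.355-fold, from 6.46 to 0.773 FPKM), and Spon2 (8.30-fold, from 26.4 to 3.18 FPKM), so no gap separates Lrrn4 from the next genes. With no minimum level, 61 called falls were at least as large as that of Lrrn4, and 50 of these had under 5 FPKM in normoxia.

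**Figure D2:**
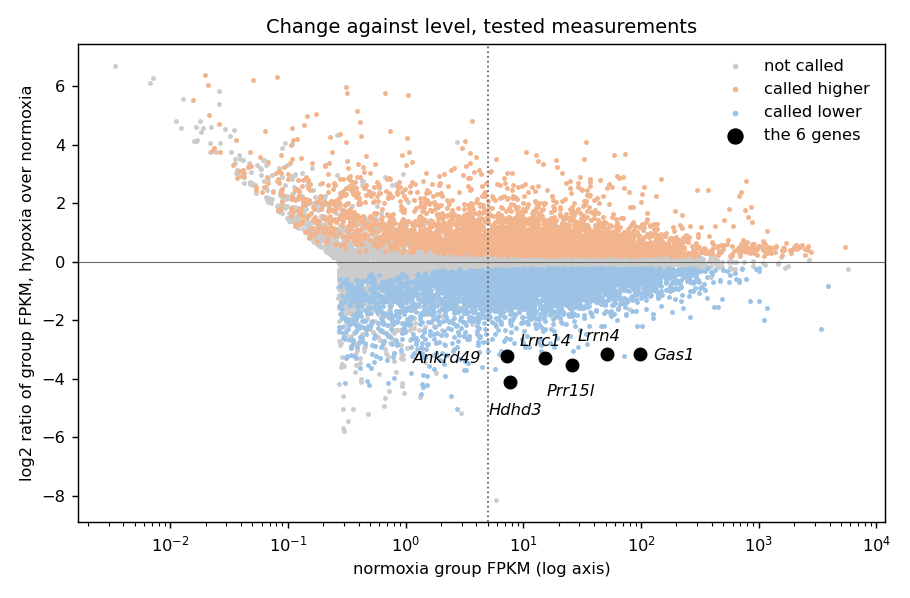
Log2 ratio of group FPKM, hypoxia over normoxia, against group FPKM in normoxia (log axis) for tested measurements above 0 in both groups, coloured by the authors' calls. The dotted line marks 5 FPKM. The 6 genes (black) lie to its right at the lower edge of the called falls, and Hdhd3 is the lowest of the 6 at -4.12.

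The gene nearest to each of the 6 in both group values was sought among 11705 other tested protein-coding genes, by the straight-line distance over log2 normoxia FPKM and log2 hypoxia FPKM. With 2 values per gene this says only that levels are alike in these 2 conditions. Ankrd49 was nearest to Sowahd (distance 0.16) and Polr3e (0.27), and Lrrc14 to Gmppb (0.18) and Padi3 (0.19). Prr15l was nearest to Spon2 (0.51) and Cldn15 (0.51), a tight junction gene, and Hdhd3 to Rrp12 (0.43) and Polr3e (0.72). Gas1 and Lrrn4 had Mest among their nearest (0.70 and 0.63), beside Mid1ip1 for Gas1 (0.83) and Ogn, an extracellular matrix proteoglycan gene, for Lrrn4 (0.58). All of these nearest genes fell, but the search for like levels in both groups fixed that direction in advance, so it is no result.

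The genes around the 6 were examined next, since adjacent transcripts can overlap or share a promoter. By GENCODE M21 (GRCm38), 18 other genes considered here lie within 20 kb of a member, of which 17 have a row in the table and 13 were tested. Of these 13 neighbours 7 fell (53.8%), 2 rose and 4 were not called, beside 29.0% lower and 28.9% higher over all tested measurements. Their median log2 ratio was -0.40. The Lrrc14 locus gave 6 of the 13, and without it 3 of 7 fell. Around 64 other protein-coding genes that fell at least 4-fold and had at least 5 FPKM in 1 of the groups, 35 of 116 tested neighbours fell (30.2%). The difference between the shares was not tested, and 13 genes at 5 loci are few.

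Hdhd3 (ENSMUSG00000038422) lies on the minus strand of chromosome 4, from 62499008 to 62503467, and overlaps no other annotated gene. Alad, the gene of an early enzyme of haem synthesis, ends 5702 bases from it on the same strand and went from 118 to 53.1 FPKM (2.23-fold lower). Pole3, which encodes a small histone-fold subunit of DNA polymerase epsilon, lies 19182 bases away on the same strand and rose from 48.1 to 68.4 FPKM. Along 1 strand, Hdhd3, Alad and Pole3 thus showed a large fall, a smaller fall and a rise. Bspry, 1710 bases away on the other strand, was at 0.189 and 0.0565 FPKM and was not tested.

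Prr15l (ENSMUSG00000047040) lies on the plus strand of chromosome 11, from 96928104 to 96937830, wholly inside D030028A08Rik, a transcript without a coding sequence on the same strand (96916270 to 96965060). D030028A08Rik fell from 1.38 to 0.0752 FPKM, 18.3-fold. Reads in shared exons cannot be told apart between these genes, and in normoxia the Prr15l value was far above that of the longer transcript. How far reads of Prr15l enter the value of D030028A08Rik was not tested, and D030028A08Rik is among the 7 neighbours that fell. Cdk5rap3, a partner of the UFM1 ligase, 11608 bases upstream on the other strand, rose from 44.2 to 60.1 FPKM. The transcription factor gene Sp2, at 10.2 and 13.2 FPKM, was not called, and Gm11525, at 0.0818 and 0.0787 FPKM, was not tested. Beside Prr15l itself, the locus thus holds a gene that fell, one that rose, one that was not called and one that was not tested.

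Lrrc14 (ENSMUSG00000033728) lies on the plus strand of chromosome 15, from 76710623 to 76717699, in the densest of these regions. Its start faces that of Recql4, a RecQ helicase gene, 75 bases away on the other strand, yet Recql4, at 15.5 and 16.3 FPKM, was not called (q = 0.555 in the authors' deposited table). Both genes of the pair stood at about the same level in normoxia, and a large fall was seen on 1 side. Upstream on the strand of Lrrc14, Mfsd3, a transporter-like gene, fell from 5.06 to 1.302 FPKM (3.89-fold), Gpt, the gene of alanine aminotransferase, from 12.2 to 4.91 FPKM (2.48-fold), and Ppp1r16a, a phosphatase regulator, from 25.5 to 19.3 FPKM (1.32-fold). These 3 falls were smaller the farther the gene lay from Lrrc14 (6384, 10937 and 15704 bases). That order does not extend to the other strand, where Recql4, at 75 bases, and Arhgap39, at 6286 bases, were not called. Whether the change depends on distance was not tested. Lrrc24, on the other strand, shares 2424 bases of its annotated span with Lrrc14 and fell from 4.95 to 1.94 FPKM (2.55-fold). The labels describe a stranded library, but no source used here says whether the authors' quantification used strand, so reads of the shared part cannot be assigned with certainty. Arhgap39, at 3.25 and 4.30 FPKM, was not called, and C030006K11Rik was not analysed here.

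Ankrd49 (ENSMUSG00000031931) lies on the minus strand of chromosome 9, from 14779618 to 14784856, head to head with Mre11a, which encodes the nuclease of the MRN complex in double-strand break repair. The annotated spans share 203 bases, and the Ankrd49 stretch printed above reaches into the edge of that shared part. Ankrd49 fell 9.21-fold while Mre11a, at 21.7 and 22.6 FPKM, was not called (q = 0.716 in the authors' deposited table). As at Lrrc14 and Recql4, a divergent pair differed between its sides. The testis gene 1700012B09Rik, downstream, is listed at 0 in both groups.

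Lrrn4 (ENSMUSG00000043110) lies on the minus strand of chromosome 2, from 132868305 to 132880891, with 1 neighbour. Crls1, the gene of cardiolipin synthase, ends 1520 bases from the end of Lrrn4 on the other strand and fell from 29.5 to 16.6 FPKM (1.78-fold). Gas1 (ENSMUSG00000052957) lies on the minus strand of chromosome 13, from 60174405 to 60177365. The noncoding gene Gm48488 overlaps 684 bases of its start on the other strand and was at 0.102 and 0.0119 FPKM, not tested. Overlap with another transcript is thus absent for Hdhd3 and Lrrn4, and for Gas1 the overlapping transcript was under 1 FPKM.

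**Figure D3:**
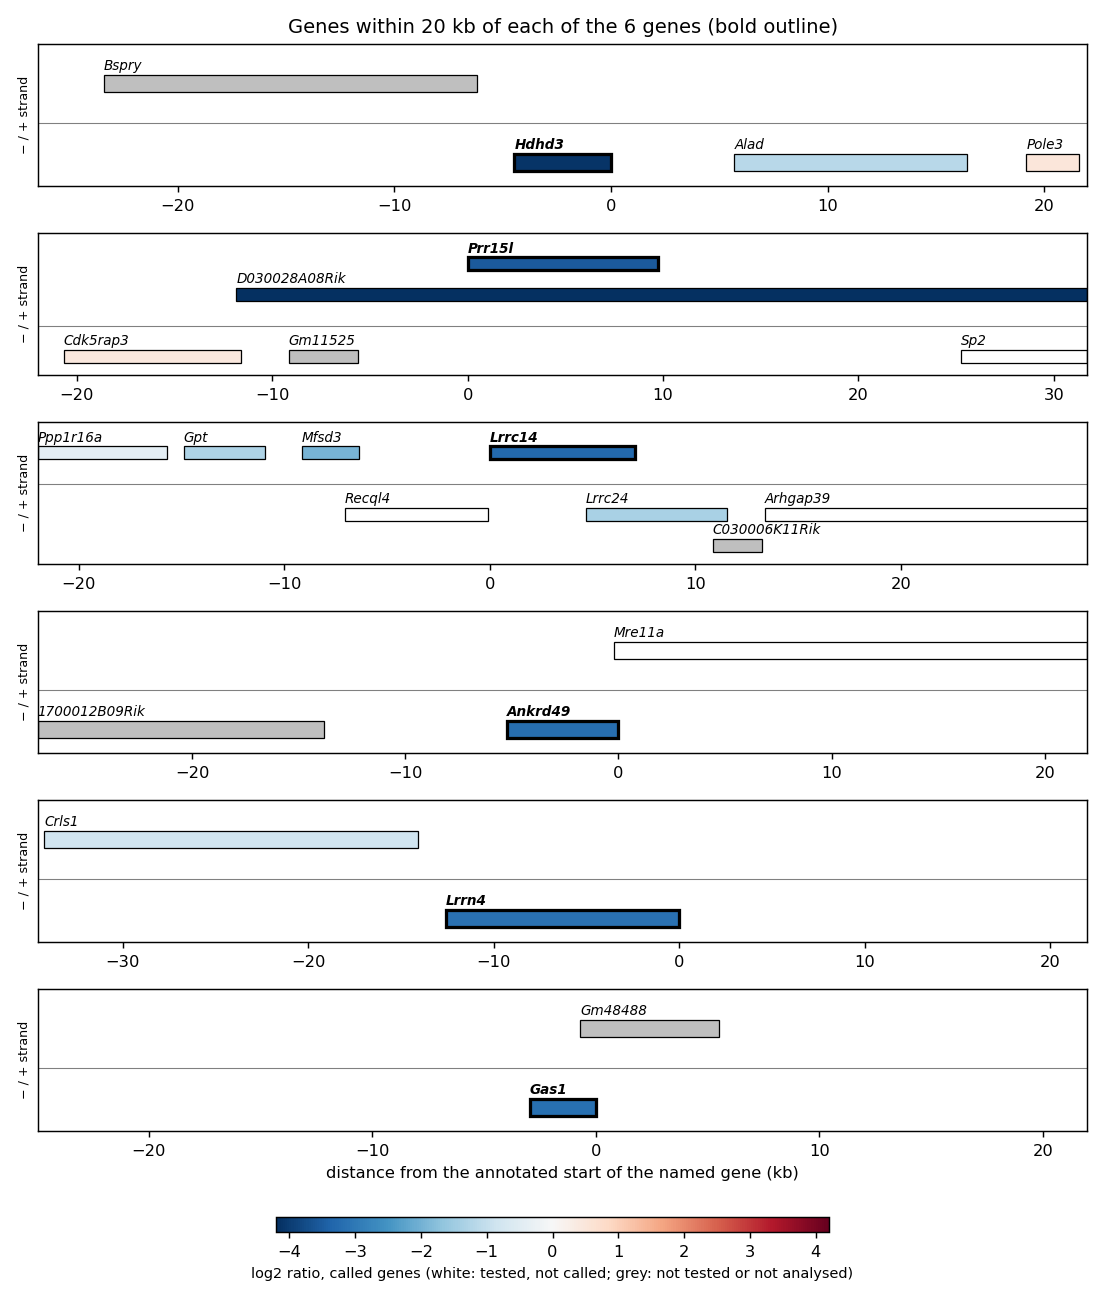
Genes considered here within 20 kb of each of the 6 genes, drawn to scale by distance from the annotated start of the named gene (kb), with the plus strand above and the minus strand below the line. Fill shows the log2 ratio of called genes, white tested genes that were not called, and grey genes not tested or not analysed; genes that run past the window are clipped. Recql4 and Mre11a, white, start beside Lrrc14 and Ankrd49, dark blue.

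The coding parts of the 6 genes are split into few exons, a property the choice did not use. Exon counts were taken up, here and over the whole table, after these data had been seen. In the transcript with the longest coding sequence, Hdhd3, Prr15l and Gas1 have 1 coding exon, Ankrd49 2, Lrrc14 3 and Lrrn4 4, beside a median of 9 (quartiles 5 and 15) over 10524 tested protein-coding genes (mean of both groups at least 1 FPKM). Coding lengths ranged from 300 bases (Prr15l) and 714 bases (Ankrd49) through 753 (Hdhd3), 1152 (Gas1) and 1479 (Lrrc14) to 2199 bases (Lrrn4), beside a median of 1389. GC content did not set them apart as a group: Ankrd49 was at 41.99% and Gas1 at 72.3%, with quartiles of 45.8% and 55.4% over all. The Gas1 transcript used has 1155 bases, nearly all coding, so its GC content leaves out untranslated parts that most other transcripts include.

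Genes with 1 coding exon also fell more often across the whole table. With the 6 genes left out, 265 of 516 such genes fell (51.4%) and 119 rose (23.1%), beside 32.6% lower and 32.7% higher over all genes in this count. The share that fell was 39.2% with 2 coding exons, 35.0% with 3, 34.4% with 4 to 5, 32.5% with 6 to 10 and 28.7% with over 10, where 35.0% rose. Falls of at least 4-fold made up 6.59% of genes with 1 coding exon and 0.745% of those with over 10. Level differs with this count. The median of the mean FPKM was 7.46 with 1 coding exon, 9.56 with 2 and 14.8 with 3. It was 18.5 with 4 to 5, 19.0 with 6 to 10 and 17.2 with over 10. The part of level in the difference was not tested: the only check was a higher minimum on the mean of both groups. A large fall lowers that mean, so it can remove the gene itself. With a mean of at least 5 FPKM, 48.2% of genes with 1 coding exon and 27.7% of those with over 10 fell. Falls of at least 4-fold then made up 1.29% with 1 coding exon, which is only 4 of 309 genes. They made up 0.304% with 2, 0.238% with 3, 0.405% with 4 to 5, 0.498% with 6 to 10 and 0.545% with over 10. With 2 or 3 coding exons this share was thus below that with over 10. Genes are not independent samples, so no p is given for these shares.

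**Figure D4:**
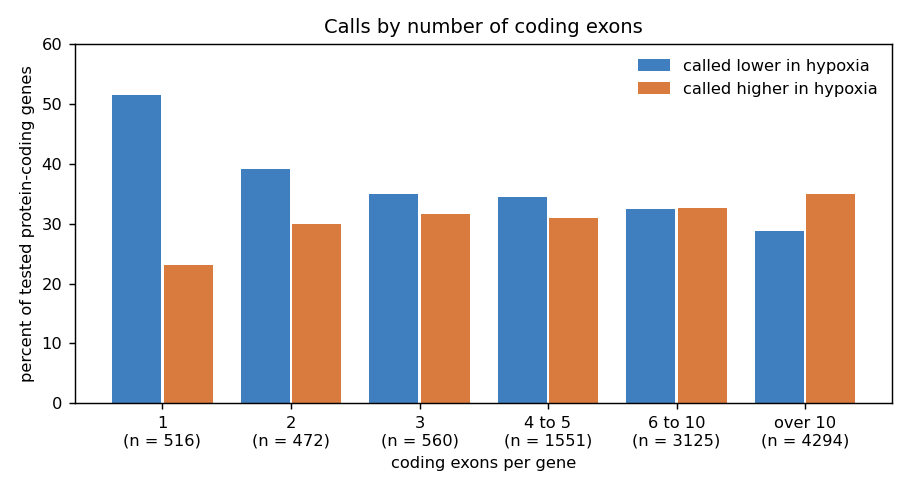
Percent of tested protein-coding genes (mean of at least 1 FPKM, the 6 genes left out) that the authors called lower (blue) or higher (orange) in hypoxia, by number of coding exons. The blue bars go from 51.4% with 1 coding exon to 28.7% with over 10.

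Relatives of each gene were then counted, without the 6 themselves and with a mean of at least 1 FPKM, where 30.9% of tested measurements were called lower and 32.1% higher and the median log2 ratio of FPKM + 1 was 0.0027. In the Hedgehog pathway 7 of 29 tested genes fell, 11 rose and 11 were not called. Their median was 0.16. The co-receptors went different ways. Cdon fell from 36.7 to 25.6 FPKM (1.43-fold), while Boc rose from 3.72 to 9.20 FPKM (2.47-fold), beside the 8.96-fold fall of Gas1. Gas1 was the most abundant of the 3 in normoxia and Cdon in hypoxia. Ptch1, the receptor and itself a target of the pathway, rose from 4.95 to 14.4 FPKM (2.91-fold), and Smo, the signal transducer, fell from 69.5 to 54.7 FPKM. The target Gli1 fell from 0.947 to 0.562 FPKM, below the minimum for the count. Of the ligands, Shh is listed at 0, Ihh was under 0.04 FPKM in both groups, and Dhh, at 2.24 and 2.65 FPKM, was not called. Arl13b, a GTPase of the primary cilium, where the pathway signals, rose 4.54-fold to 37.1 FPKM and Gsk3b 2.22-fold, and Iqce and Gpr161, both ciliary regulators of the pathway, fell 2.19-fold and 2.26-fold.

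GAS1 also resembles the receptors of the GDNF family in sequence. Of the 4 other tested genes of that family past the minimum, Ncam1, an adhesion molecule that binds GDNF, rose from 16.4 to 37.9 FPKM, Gdnf from 1.40 to 2.70 FPKM and Nrtn from 2.33 to 3.10 FPKM, and Artn, at 4.57 and 4.48 FPKM, was not called. Of the receptors, Gfra4 rose from 0.492 to 1.17 FPKM, below the minimum for the count. Gfra1 was at 0.180 and 0.116 FPKM and Ret at 0.0107 and 0.0309 FPKM, neither tested. The list of growth arrest and DNA damage response genes also holds Gadd45gip1 and the receptor kinase genes Axl, Tyro3 and Mertk. Of its 14 tested genes other than Gas1, 8 rose and 4 fell, and 2 were not called (median 0.53). The 8 include Mertk (1.55-fold) and Gadd45gip1 (1.61-fold), the 4 include Tyro3 (1.70-fold), and Axl was not called. Ddit3, the gene of the stress factor CHOP, rose from 36.4 to 175 FPKM, Gadd45b from 42.6 to 193 FPKM, Gas2l3 from 8.88 to 39.1 FPKM and Gas7 from 0.727 to 3.57 FPKM. Gas6, the ligand of the TAM receptor kinases, fell from 27.5 to 12.6 FPKM and Gas2l1 1.87-fold. Gas2, at 4.71 and 3.74 FPKM, was not called, so genes with Gas names went both ways.

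For Lrrc14, the NF-kB list had 7 of 31 tested genes lower, 11 higher and 13 not called (median -0.041). Ikbkb, the gene of the kinase that LRRC14 binds, was at 19.9 and 18.4 FPKM and was not called, and neither were its partners Chuk (29.0 and 28.2 FPKM) and Ikbkg (11.2 and 10.2 FPKM). The feedback inhibitors Tnfaip3 and Nfkbia, which are targets of NF-kB, rose from 3.51 to 11.5 FPKM and from 29.0 to 68.0 FPKM, and Rel 2.33-fold. Nfkbie, a further inhibitor, fell from 6.55 to 2.02 FPKM and the adaptor gene Myd88 from 14.0 to 7.59 FPKM. Among CUL2 ligase genes 3 of 19 fell, 3 rose and 13 were not called (median -0.029). The scaffold Cul2 (21.1 and 24.4 FPKM) and Rbx1 (77.4 and 83.9 FPKM) were not called, while substrate receptors went both ways. Vhl rose 4.44-fold to 99.8 FPKM, Fem1b 1.77-fold and Zyg11b 1.28-fold, and Fem1a fell from 6.37 to 1.81 FPKM. Nae1 and Uba3, which act in the pathway that attaches NEDD8 to cullins, fell 1.31-fold and 1.196-fold. The other genes with LRRC names, which share the repeat and not a pathway, had 5 of 25 lower and 6 higher (median -0.091). Lrrc24, beside Lrrc14, had the largest fall among these 25, followed by Lrrc8b (2.38-fold), Lrrc20 (1.99-fold) and Lrrc59 (1.90-fold). Lrrc58 and Lrrc42 rose 1.56-fold and 1.48-fold. Below the minimum for the count, Lrrc4c fell more than Lrrc24, from 1.38 to 0.336 FPKM (4.12-fold). The closest relative by name, Lrrc14b, was at 0.00992 and 0.0210 FPKM and was not tested.

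For Ankrd49, 9 of 23 other tested genes with ANKRD names fell, 10 rose and 4 were not called (median 0.012). Ankrd37, a known target of the hypoxia-inducible factors, rose from 12.7 to 159 FPKM (12.5-fold) and Ankrd10 2.03-fold. The falls reached at most 2.32-fold (Ankrd34a, from 4.32 to 1.86 FPKM), with Ankrd13c at 1.92-fold, and so were smaller than that of Ankrd49. For Hdhd3, 10 of 30 tested HAD-family genes fell, 7 rose and 13 were not called (median -0.074). Lpin1, a phosphatidate phosphatase, rose 6.16-fold, and Pgp, which removes phosphoglycolate and glycerol phosphate, from 58.2 to 179 FPKM. Ublcp1, a phosphatase of the proteasome, fell from 23.3 to 5.34 FPKM (4.35-fold), Psph, which completes serine synthesis, from 107 to 47.8 FPKM, and Ctdsp1, a phosphatase of RNA polymerase II, 2.16-fold. Hdhd5, the other called gene with this name, fell from 11.2 to 7.12 FPKM (1.57-fold). For Prr15l, 5 of 13 other genes with PRR names fell and 3 rose (median -0.14). Its paralog Prr15 fell from 17.0 to 8.97 FPKM (1.90-fold), and Prr11, a cell cycle gene, rose from 24.3 to 58.1 FPKM.

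Lrrn4 was compared with its family and with mesothelial genes. Lrrn1 and Lrrn3 are listed at 0 and Lrrn2 was under 0.06 FPKM in both groups, while Lrrn4cl, named for its likeness to Lrrn4, fell from 1.64 to 0.604 FPKM (2.71-fold). Although the cells are labelled as fibroblasts, all 9 other mesothelial markers were tested, and 7 fell, 1 rose and 1 was not called (median -1.01). The surface plaque gene Upk3b went from 225 to 75.1 FPKM (3.00-fold), the transcription factor gene Wt1 from 149 to 52.3 FPKM (2.85-fold), Cldn15 from 18.2 to 2.39 FPKM (7.59-fold) and Muc16 from 3.36 to 0.539 FPKM (6.23-fold). Upk1b (1.89-fold), Bnc1 (2.14-fold) and Nkain4 (2.15-fold) also fell. Msln, which encodes mesothelin, was at 137 FPKM in both groups and was not called, and the keratin gene Krt19 rose from 303 to 592 FPKM. The summed level of these 9 markers was 894.6 FPKM in normoxia and 889.5 FPKM in hypoxia. Without Krt19 it was 592 and 297 FPKM. Krt19 and Msln, both among the abundant ones, thus were not lower, and in bulk RNA fewer cells of a type and less RNA per cell cannot be told apart.

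The labelled cell type was checked against further markers. All 10 fibroblast markers were tested, led in normoxia by Vim, Col1a1 (463 FPKM), Fn1 (448 FPKM), Col3a1 (328 FPKM) and Col1a2 (140 FPKM). Dcn (28.8 FPKM), Pdgfrb (10.9 FPKM), Thy1 (8.65 FPKM), Pdgfra (3.11 FPKM) and Postn (1.24 FPKM) were lower in normoxia. They stood below the mesothelial genes Upk3b (225 FPKM), Wt1 (149 FPKM) and Msln (137 FPKM). Of the 10 fibroblast markers 5 fell, 2 rose (Vim and Fn1) and 3 were not called. Their summed level was 2314 FPKM in normoxia and 3664 FPKM in hypoxia. Vim alone went from 883 to 2249 FPKM, and the other 9 summed to 1431 and 1415 FPKM. Of the 9 epithelial markers other than Prr15l, 5 were tested. Krt8 (28.3 to 10.1 FPKM), Cdh1 (5.93 to 3.76 FPKM) and Krt14 (15.9 to 10.8 FPKM) fell, Krt18 rose from 313 to 443 FPKM, and Epcam, at 5.97 and 5.22 FPKM, was not called. The other 4, Krt5, Cldn4, Cldn7 and Esrp1, were under 1 FPKM in both groups. The summed level of the 9 was 369.2 FPKM in normoxia and 473.0 FPKM in hypoxia. Without Krt18 it was 56.1 and 30.2 FPKM. Endothelial markers summed to 0.220 and 0.160 FPKM, and the immune genes Ptprc, Adgre1 and Cd3e, the glial genes Sox10 and Gfap and the muscle genes Myod1, Myog and Actn2 were each under 1 FPKM. Cd68 rose from 1.32 to 2.27 FPKM and Map2 from 3.86 to 7.42 FPKM, and Des, at 11.0 and 9.46 FPKM, was not called. The part of any change in the makeup of the cultures in the falls of Lrrn4 and Prr15l was not tested.

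**Figure D5:**
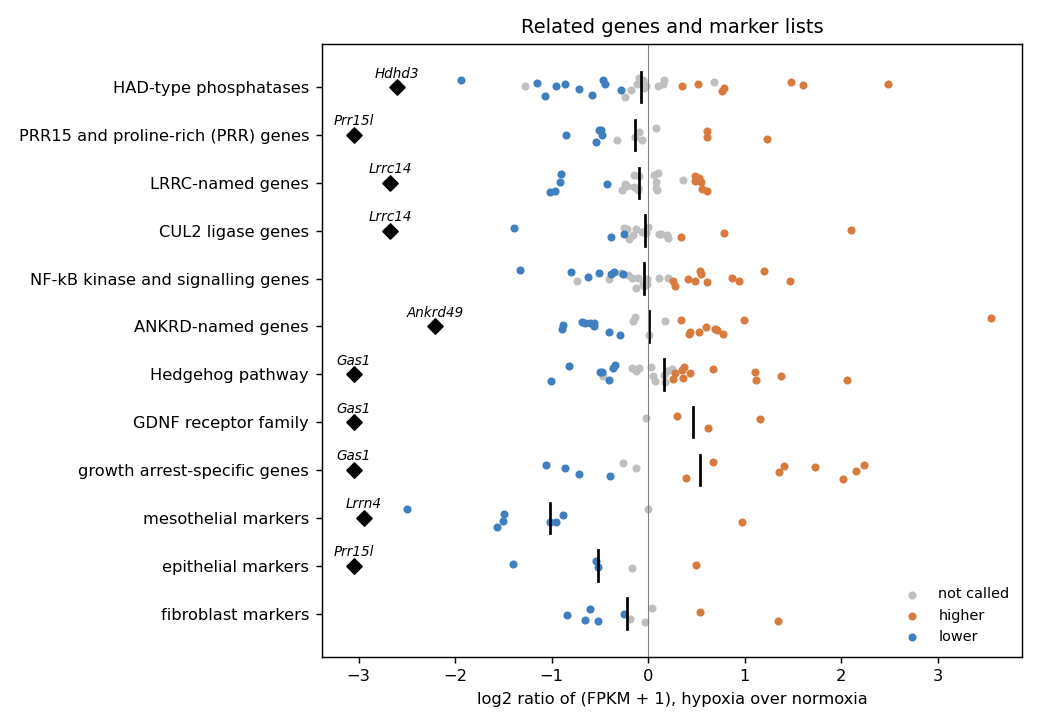
Log2 ratio of FPKM + 1, hypoxia over normoxia, of each tested gene with a mean of at least 1 FPKM in the lists related to the 6 genes, coloured by the authors' calls, with the 6 genes as black diamonds and the median of the other genes as a bar. The median of the mesothelial markers is -1.01, and that of the growth arrest list 0.53.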

How the data were processed

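RNA from 6 cultures (3 per condition) was sequenced from stranded, poly-A selected libraries, per the labels' protocols. The submitters' processing notes name GRCm38, Cuffdiff 2.2.1, HISAT2 2.1.0, Cufflinks and StringTie 1.3.4d. The authors deposited 1 FPKM per gene and group, a log2 fold change, a score (the test statistic, unused) and a q-value beside its p-value, per the file headers. The scaling between libraries: not given in the sources used here. Single-sample values were not analysed here, so planned fits to them were not run, and the authors' q is the only error statement.

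The 53207 rows hold 51482 measurements, since some stand under more than 1 identifier; each was used once. Folds are ratios of group FPKM, with no pseudocount. List medians use log2(FPKM + 1) and a mean of at least 1 FPKM. The median of hypoxia over normoxia was 0.991. Neighbours are genes whose GENCODE M21 span comes within 20 kb; 1 gene is not reported here and is in no neighbour count. Promoters are those of RefSeq GRCm38.p6.

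Members and lists were chosen with earlier results of these data known. Named genes are the members, the neighbours, the next 3 falls, the 2 nearest genes per member, and from each list up to 4 called genes with the largest change and up to 2 against the majority. Others were named for their role or after their values were seen. Scripts (Python 3.11.15, pandas 2.3.3, numpy 2.4.6) were tested on simulated data. Alternatives were other pseudocounts, minimum levels, windows, thresholds, a rescaling by the median ratio and shared measurements.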

Additional observations from a re-analysis of the deposited data

How the results depend on the processing

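The authors' calls of the 6 genes held at a q of 0.01 and with a 2-fold threshold (6 of 6 in both). With a pseudocount of 1 the log2 ratios were smaller, from -2.20 (Ankrd49) to -3.05 (Gas1), and Hdhd3 went from -4.12 to -2.60; the order of the 6 by fold depends on it. No paired analysis was possible because the columns hold group values without replicate numbers, and leaving out samples and other count tools could not be run for the same reason. Depth is unknown.

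Of the neighbours, 13 of 30 fell and 7 rose within 100 kb, and 5 fell and 0 rose of 8 within 10 kb. With a mean of at least 5 FPKM 4 of 9 fell and 2 rose. With a 2-fold threshold 5 of 13 fell and 0 rose, beside 9.87% lower and 9.03% higher over all tested measurements. Those 5 include D030028A08Rik and Lrrc24, whose spans overlap those of Prr15l and Lrrc14. Without the Lrrc14 locus, a setting added after seeing the data, 3 of 7 fell. With the 2-fold threshold, genes lower and higher numbered 4 and 3 (HAD), 0 and 1 (PRR), 2 and 0 (LRRC), 1 and 1 (CUL2), 1 and 3 (NF-kB), 1 and 2 (ANKRD), 2 and 4 (Hedgehog) and 0 and 1 (fibroblast). It left 6 growth arrest list genes higher and 1 lower, 6 mesothelial genes lower and 0 higher, and 1 epithelial gene lower and 0 higher. Of the GDNF family 1 gene was left higher. With a mean of at least 5 FPKM, 3 PRR, 2 LRRC and 4 Hedgehog genes were lower and 1 GDNF family gene was higher. At a q of 0.01, 3 fibroblast markers were lower, and with Gas1 left in, 1 GDNF family gene was lower. The median of the LRRC list turned to 0.067 with a mean of at least 5 FPKM, and that of the ANKRD list to -0.063 with no minimum, with shared measurements included, and with Ankrd49 left in. With a window of 100 bases before the start, 1 promoter held ACGTG, 0 GCGTG and 1 GGGCGG.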
